A study of Saccharomyces cerevisiae with 10 samples.

Results

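The 10 genes described here, of 6377 features measured, make the enzymes of leucine, isoleucine and valine synthesis in budding yeast: ILV1, ILV2, ILV6, ILV5, ILV3, LEU4, LEU9, LEU1, BAT1 and BAT2. Their spots were found by gene symbol, and each gene had 1 reporter printed as 2 spots. The group was chosen by the measured log2 ratios of LEU9, which lay lower in the Epl1 truncations and higher in the eaf1 deletion. LEU9's values are therefore given as a description with no test, and members passing the test are counted over the other 9, which came into the group as genes of the same pathway, with earlier results of these data known.

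The study profiled RNA of yeast strains with altered NuA4, a histone acetyltransferase complex in which Epl1 holds the catalytic module and Eaf1 is the scaffold that joins the subcomplexes. Epl1 1:380 and Epl1 1:485 carry Flag-tagged Epl1 that the labels give as residues 1 to 380 and 1 to 485. The eaf1 deletion lacks EAF1; its array titles also name an HA tag, which its genotype label does not. Eaf1 1:982 carries HA-tagged Eaf1, residues 1 to 982, and was treated here as the tagged Eaf1 control. Its label calls it a C-terminal truncation but does not say whether residue 982 is the last of full-length Eaf1. The strain called tagged Epl1 carries Epl1 with a Flag tag and no stated cut. The truncations were compared with tagged Epl1, and the deletion with Eaf1 1:982. Each strain had 2 arrays, replicate a with the strain in Cy3 and replicate b with the strain in Cy5, each hybridised against a common reference pool. Cultures were in mid-log phase in multiwell plates, per the series' design text. Whether the arrays of a strain stem from different cultures is not stated in the labels. Their p-values rest on array-to-array spread, which may be technical. All 10 arrays give whole-culture RNA, in which fewer cells of a kind and less RNA per cell cannot be told apart.

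Leucine, isoleucine and valine share much of their synthesis. Threonine is first deaminated for isoleucine, then a common set of mitochondrial enzymes builds the carbon skeletons of valine and isoleucine. The valine precursor also feeds a leucine branch that starts with isopropylmalate synthase. Its product, alpha-isopropylmalate, switches the regulator Leu3 into an activator, and Gcn4 activates many of the same genes when amino acids are scarce.

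Gene spots were bright on every array. Per array, the median Cy5 intensity ran from 674 to 1086 over a background of 60 to 74, and the median Cy3 intensity from 334 to 586 over one of 44 to 50. At least 97.4% of gene spots exceeded background in both channels on each array, and all 20 spot values of every member did. Array number limits the precision: the median 95% interval reached 0.16 on either side of a log2 difference. EAF1 was measured at -2.00 and -2.14 (log2 of strain over pool) in the deletion, against 0.74 and 0.54 in Eaf1 1:982, a difference of -2.71 ± 0.09 (SE). Differences were fitted with limma over all 10 arrays, and a feature passed where its Benjamini-Hochberg adjusted p over all 6377 features was below 0.05, as EAF1's was (7.24e-07). EPL1, the other altered subunit, was at 0.34 and 0.36 in Epl1 1:380 and at 0.57 and 0.37 in Epl1 1:485, against -0.05 and -0.01 in tagged Epl1, and it rose by 0.38 and 0.50 (adjusted p 0.00240 and 0.000656). It was at 1.06 and 1.14 in the deletion, against 0.59 and 0.58 in Eaf1 1:982. The position of its oligo relative to the cuts is not analysed here. Epl1 1:380 replicate b was isolated with the pool's RNA protocol, while the other 9 strain samples used another.

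In both Epl1 truncations LEU1, the isopropylmalate isomerase of the leucine branch, fell to about the same extent, and LEU9 lay lower by a similar amount. In the eaf1 deletion ILV2, ILV5 and LEU4 rose and BAT2 fell. No member other than LEU9 changed by more than 1.7-fold in any of the 3 comparisons. Over all features 3.81% passed and exceeded 1.7-fold in Epl1 1:380, 2.92% in Epl1 1:485 and 2.68% in the deletion.

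**Figure D1:**
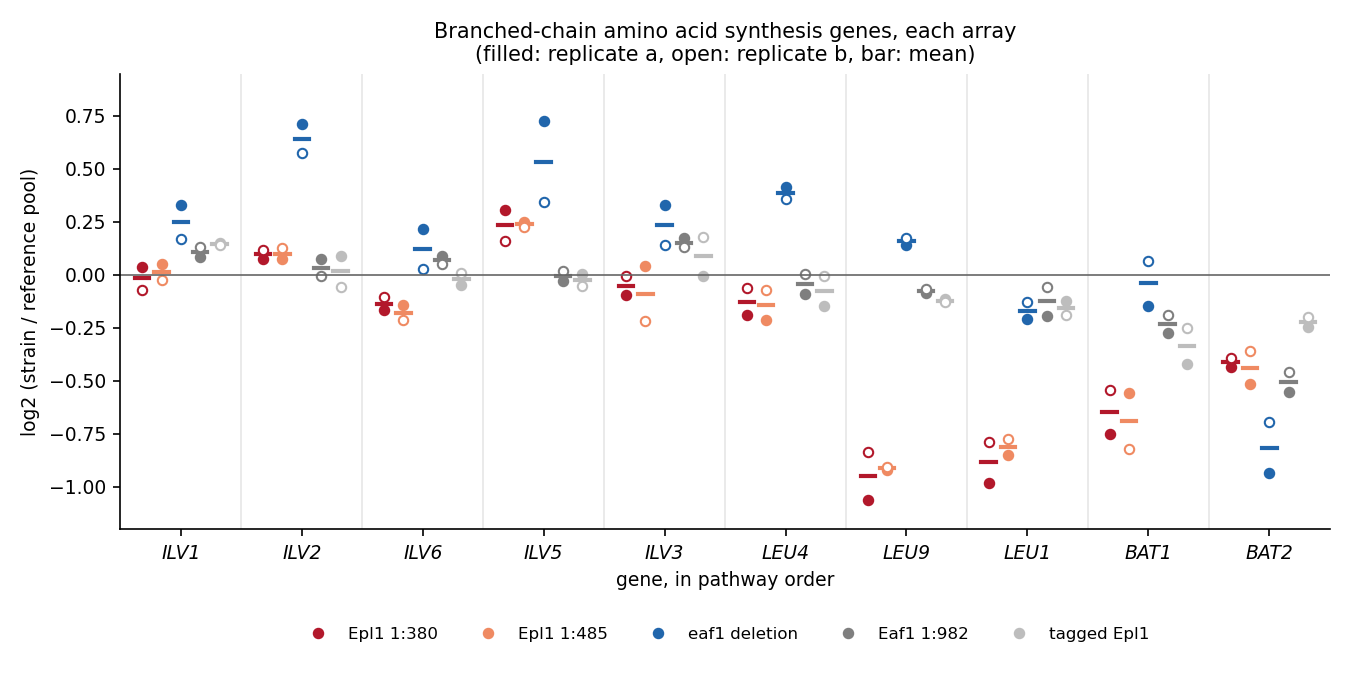
Log2 ratio of strain over reference pool for each gene in pathway order, with a filled point for replicate a, an open point for replicate b and a bar for their mean. LEU9 and LEU1 lie between -1.06 and -0.77 in the truncations, below all other strains, and ILV2 lies at 0.71 and 0.57 in the deletion.

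The first enzyme of the isoleucine branch is ILV1 (YER086W), the threonine deaminase. Its log2 ratios over the pool were 0.04 and -0.07 in Epl1 1:380, 0.05 and -0.02 in Epl1 1:485, 0.33 and 0.17 in the deletion, 0.08 and 0.13 in Eaf1 1:982, and 0.15 and 0.14 in tagged Epl1. The truncation arrays lay below the tagged Epl1 arrays and the deletion arrays above the Eaf1 1:982 arrays, without overlap. The differences were -0.16 ± 0.07, -0.13 ± 0.07 and 0.14 ± 0.07 (SE), and none passed (adjusted p 0.0914, 0.167 and 0.138). With the replicate letter as a block, the Epl1 1:380 difference passed (adjusted p = 0.0477). The deletion difference passed without deletion replicate b (0.23, adjusted p = 0.0398).

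ILV2 (YMR108W) encodes the catalytic subunit of acetolactate synthase, the enzyme that starts the common path, and ILV6 (YCL009C) its regulatory subunit. ILV2 was at 0.71 and 0.57 in the deletion, against 0.07 and 0.00 in Eaf1 1:982. It was at 0.07 and 0.12 in Epl1 1:380 and at 0.07 and 0.13 in Epl1 1:485, against 0.09 and -0.06 in tagged Epl1. Both deletion arrays stood above the other 8 arrays, whose ranges overlapped. The deletion difference was 0.61 ± 0.07, or 1.52-fold (adjusted p = 0.000311), and the truncation differences were 0.08 ± 0.07 each (adjusted p 0.397 and 0.393).

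Its partner ILV6 was at -0.17 and -0.11 in Epl1 1:380 and at -0.14 and -0.21 in Epl1 1:485, against -0.05 and 0.01 in tagged Epl1. ILV6 was at 0.22 and 0.03 in the deletion, against 0.09 and 0.05 in Eaf1 1:982. The truncation arrays lay below their control and the deletion arrays spanned theirs. No ILV6 difference passed: -0.12, -0.16 and 0.05 ± 0.07 (adjusted p 0.209, 0.105 and 0.610). The Epl1 1:485 difference stayed at -0.16 without either deletion array. Leaving out an array that is not part of a comparison does not change its difference, here and for the genes below. It changes only the shared estimate of spread, and so the adjusted p.

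ILV5 (YLR355C), the acetohydroxyacid reductoisomerase, is the next step. It was at 0.73 and 0.34 in the deletion, against -0.03 and 0.02 in Eaf1 1:982. In Epl1 1:380 it was at 0.31 and 0.16 and in Epl1 1:485 at 0.25 and 0.23, against 0.00 and -0.05 in tagged Epl1. Every deletion and truncation array stood above every control array. The deletion difference of 0.54 ± 0.11 (1.46-fold) passed (adjusted p = 0.00503). It was 0.35 to 0.73 with either deletion array left out. The truncation differences were 0.26 ± 0.11 each (adjusted p 0.0875 and 0.0871). They passed with the replicate letter as a block (adjusted p 0.0408 and 0.0404) and with only the strains compared (adjusted p 0.0267 and 0.0101). Without either deletion array they were still 0.26 each, as those arrays do not enter them.

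ILV3 (YJR016C), the dihydroxyacid dehydratase, completes the common path. It was at -0.10 and -0.01 in Epl1 1:380 and at 0.04 and -0.22 in Epl1 1:485, against -0.01 and 0.18 in tagged Epl1. Deletion arrays gave 0.33 and 0.14, against 0.17 and 0.13 in Eaf1 1:982. All 3 sets of arrays overlapped their controls. The differences were -0.14, -0.18 and 0.08 ± 0.10 (adjusted p 0.308, 0.208 and 0.574).

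LEU4 (YNL104C) and LEU9 (YOR108W) are paralogs that both encode isopropylmalate synthase, the entry to the leucine branch. LEU9 was at -1.06 and -0.84 in Epl1 1:380 and at -0.92 and -0.90 in Epl1 1:485, against -0.12 and -0.13 in tagged Epl1. LEU9 was at 0.14 and 0.17 in the deletion, against -0.08 and -0.07 in Eaf1 1:982. All truncation arrays stood below all other arrays and both deletion arrays above them. The differences were -0.83 ± 0.07 for Epl1 1:380 (1.77-fold lower), -0.79 ± 0.07 for Epl1 1:485 (1.73-fold lower) and 0.23 ± 0.07 for the deletion (1.18-fold higher). Without Epl1 1:380 replicate b, the array with the other isolation protocol, the Epl1 1:380 difference was -0.94.

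LEU4 showed a different order. It was at 0.42 and 0.36 in the deletion, against -0.09 and 0.00 in Eaf1 1:982. It was at -0.19 and -0.06 in Epl1 1:380 and at -0.21 and -0.07 in Epl1 1:485, against -0.14 and -0.01 in tagged Epl1. The deletion arrays stood above the other 8 arrays, and the truncation arrays overlapped their control. The deletion difference was 0.43 ± 0.08, or 1.35-fold (adjusted p = 0.00271). It was 0.45 from scanner intensities with normexp and loess and did not pass there (adjusted p = 0.123). The truncation differences were -0.05 and -0.07 ± 0.08 (adjusted p 0.620 and 0.515).

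Set against LEU4 on the same array, LEU9's log2 ratio was lower by 0.87 and 0.77 in Epl1 1:380 and by 0.71 and 0.83 in Epl1 1:485. In the deletion it was lower by 0.27 and 0.18, against 0.00 and -0.07 (LEU9 minus LEU4) in Eaf1 1:982 and 0.03 and -0.12 in tagged Epl1. These are differences between ratios to the pool, not between transcript levels. Oligo sequences were not used here, so whether either spot also reads its paralog is not known.

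LEU1 (YGL009C) encodes isopropylmalate isomerase, which acts on the product of LEU4 and LEU9. It was at -0.98 and -0.79 in Epl1 1:380 and at -0.85 and -0.77 in Epl1 1:485, against -0.12 and -0.19 in tagged Epl1. LEU1 was at -0.21 and -0.13 in the deletion, against -0.19 and -0.06 in Eaf1 1:982. Truncation arrays stood below all 6 others, and the deletion overlapped its control. The truncation differences were -0.73 ± 0.08 (1.65-fold lower, adjusted p = 0.000149) and -0.66 ± 0.08 (1.57-fold lower, adjusted p = 0.000332). With any array left out they ran from -0.82 to -0.62 and passed. The deletion difference was -0.04 ± 0.08 (adjusted p = 0.708).

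LEU2, the isopropylmalate dehydrogenase that follows LEU1, is no member and had dim spots on every array, at 100 to 173 in Cy5 and 56.2 to 91.6 in Cy3 against backgrounds of 61.5 and 45. Its differences were -0.01, -0.02 and 0.08 ± 0.12, none of which passed (adjusted p 0.957, 0.929 and 0.645).

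BAT1 (YHR208W) and BAT2 (YJR148W) encode the mitochondrial and cytosolic branched-chain aminotransferases, which complete synthesis and begin breakdown. BAT1 was at -0.75 and -0.54 in Epl1 1:380 and at -0.56 and -0.82 in Epl1 1:485, against -0.42 and -0.25 in tagged Epl1. Deletion arrays gave -0.15 and 0.07, against -0.28 and -0.19 in Eaf1 1:982. Truncation arrays lay below their control and deletion arrays above theirs. The Epl1 1:485 difference of -0.35 ± 0.11 (1.28-fold lower) passed (adjusted p = 0.0365). The Epl1 1:380 difference was -0.31 ± 0.11 (adjusted p = 0.0543, and 0.0347 with the replicate letter as a block), and the deletion difference was 0.19 ± 0.11 (adjusted p = 0.228). The Epl1 1:485 call ended without Epl1 1:485 replicate b (-0.22, adjusted p = 0.230), tagged Epl1 replicate a or b (adjusted p 0.0527 and 0.206) or either Eaf1 1:982 array (adjusted p = 0.0506). The Epl1 1:380 difference passed without Epl1 1:380 replicate b (-0.42, adjusted p = 0.0430), either Epl1 1:485 array (adjusted p = 0.0407) or either deletion array (adjusted p = 0.0415).

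BAT2 was lowest in the deletion, at -0.94 and -0.69, against -0.55 and -0.46 in Eaf1 1:982. It was at -0.43 and -0.39 in Epl1 1:380 and at -0.52 and -0.36 in Epl1 1:485, against -0.25 and -0.20 in tagged Epl1. The deletion difference of -0.31 ± 0.09 (1.24-fold lower) passed (adjusted p = 0.0219). That call ended without deletion replicate a (-0.19) or Eaf1 1:982 replicate b (-0.26). It also ended from scanner intensities without background correction (-0.32, adjusted p = 0.0720) or with print-tip loess (-0.33, adjusted p = 0.0736). With only the strains compared it ended too (-0.31, adjusted p = 0.0661). When arrays were centred on added control RNA, the deletion difference was -0.03 (adjusted p = 0.953). The truncation differences of -0.19 and -0.21 ± 0.09 did not pass (adjusted p 0.111 and 0.0823), passed with the block (adjusted p 0.0258 and 0.0166) or without either deletion array (adjusted p 0.0467 and 0.0320), and were 0.02 and 0.05 when arrays were centred on added control RNA. On the same array, BAT1 minus BAT2 was 0.79 and 0.76 in the deletion, against 0.28 and 0.27 in Eaf1 1:982. It was -0.32 and -0.15 in Epl1 1:380 and -0.04 and -0.46 in Epl1 1:485, against -0.17 and -0.05 in tagged Epl1.

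Counted over the 9 tested members, Epl1 1:380 had 0 higher, against 21.7% of all features, and 1 lower (LEU1), against 19.1%. Epl1 1:485 had 0 higher, against 19.4% of all features, and 2 lower (LEU1 and BAT1), against 17.6%. The deletion had 3 higher (ILV2, ILV5 and LEU4), against 17.8% of all features, and 1 lower (BAT2), against 15.8%. With the replicate letter as a block, Epl1 1:380 had 1 higher (ILV5) and 4 lower (LEU1, BAT1, BAT2 and ILV1). Epl1 1:485 then had 1 higher (ILV5) and 3 lower (LEU1, BAT1 and BAT2), and the deletion kept its 3 and 1. Of all 6377 features, the block called 1666 higher and 1494 lower in Epl1 1:380. It called 1556 and 1415 in Epl1 1:485, and 1425 and 1277 in the deletion. The median difference over the 9 tested members, LEU9 left out, was -0.14 (ILV3), -0.16 (ILV6) and 0.14 (ILV1). Over all features it was 0.01 in each of the 3 comparisons. The truncation comparisons share the tagged Epl1 arrays.

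**Figure D2:**
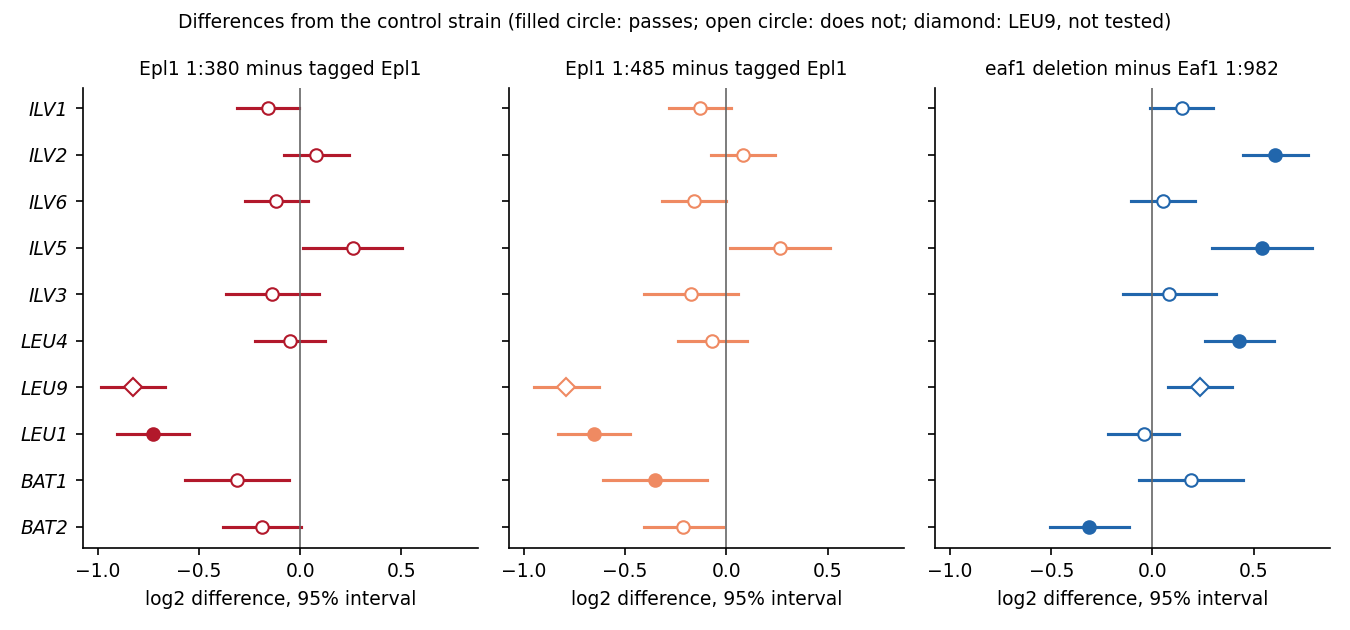
Log2 difference from the control strain with its 95% interval for each gene, in Epl1 1:380 (left), Epl1 1:485 (middle) and the eaf1 deletion (right). Filled circles passed at an adjusted p below 0.05, open circles did not, and the diamond marks LEU9, which was not tested. LEU1 passed in both truncations, BAT1 in Epl1 1:485, and ILV2, ILV5, LEU4 and BAT2 in the deletion.

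The truncations were then set against the deletion, each difference taken from its own control, to ask whether a gene responded differently to the change in Epl1 and the loss of Eaf1. LEU1, LEU4 and ILV2 differed: their Epl1 1:380 difference was lower than their deletion difference by 0.68 ± 0.11, 0.48 ± 0.11 and 0.53 ± 0.10 (adjusted p 0.0112, 0.0344 and 0.0192). For Epl1 1:485 the same genes were lower by 0.61 ± 0.11, 0.50 ± 0.11 and 0.52 ± 0.10 (adjusted p 0.0199, 0.0391 and 0.0240). Of 9 members 3 were lower and 0 higher in each, beside 2.49% lower and 3.36% higher over all features with Epl1 1:380, and 1.98% and 1.91% with Epl1 1:485. Both tests share the deletion, Eaf1 1:982 and tagged Epl1 arrays. For LEU1 the truncations fell and the deletion was near its control. For LEU4 and ILV2 the deletion rose and the truncations were near theirs. LEU9's untested values were -1.06 and -1.03.

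The other 6 members did not pass. BAT1 was at -0.50 ± 0.16 and -0.55 ± 0.16 (adjusted p 0.113 and 0.108), and ILV1 at -0.30 and -0.27 ± 0.10 (adjusted p 0.112 and 0.170). ILV5, ILV3 and ILV6 were at -0.28, -0.22 and -0.17 with Epl1 1:380, and BAT2 at 0.12, with adjusted p of 0.343 to 0.629. ILV5 passed without deletion replicate b (-0.48 with Epl1 1:380 and -0.47 with Epl1 1:485, adjusted p 0.0241 and 0.0303), as did ILV1 with Epl1 1:380 (-0.39, adjusted p = 0.0392).

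These calls depended on the processing more than their sizes did. From scanner intensities with normexp and loess, which lack the authors' dye-bias correction, LEU1 was at -0.69 and -0.56 (adjusted p 0.0864 and 0.167), LEU4 at -0.51 and -0.60 (0.574 and 0.508) and ILV2 at -0.54 and -0.56 (0.335 and 0.359), so none passed. LEU1 with Epl1 1:380 missed the threshold without tagged Epl1 replicate a (-0.65, adjusted p = 0.0502). LEU1 with Epl1 1:485 missed it without either Epl1 1:485 array, either tagged Epl1 array or Eaf1 1:982 replicate a (-0.65 to -0.54). ILV2 with Epl1 1:380 missed it without either Eaf1 1:982 array, Epl1 1:380 replicate a or tagged Epl1 replicate a (-0.57 to -0.45). ILV2 with Epl1 1:485 missed it without either Eaf1 1:982 array, either Epl1 1:485 array, deletion replicate a or tagged Epl1 replicate a (-0.56 to -0.45). LEU4 missed it without either Eaf1 1:982 array, either tagged Epl1 array, deletion replicate a, Epl1 1:380 replicate a or either Epl1 1:485 array, in the test that each array enters (-0.57 to -0.41).

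**Figure D3:**
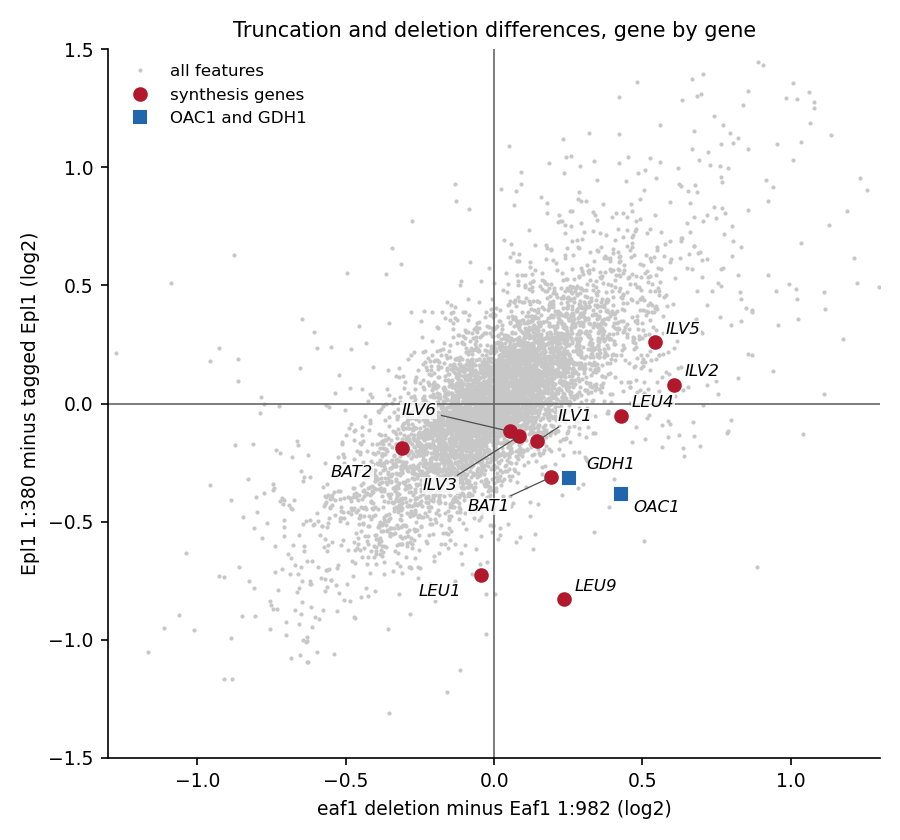
Log2 difference of Epl1 1:380 from tagged Epl1 (vertical) against that of the eaf1 deletion from Eaf1 1:982 (horizontal), with 1 point per feature; 68 of 6377 features lie outside the axes. LEU9 lies at -0.83 and 0.23, LEU1 at -0.73 and -0.04, and ILV2, LEU4 and ILV5 to the right at 0.61, 0.43 and 0.54.

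The pattern for which LEU9 was picked, lower in a truncation and higher in the deletion, can be counted over all features as a description that includes LEU9 itself. LEU9's place in the count follows from its selection, so the count is no test of LEU9 and no support for its pattern. With Epl1 1:380, 14 of 6377 features (0.22%) were under the threshold in both comparisons with those directions, which is 1.15% of the features lower in Epl1 1:380 and 1.23% of those higher in the deletion. With Epl1 1:485 it was again 14 features, 1.25% and 1.23% of each. Besides LEU9, the listed genes among them were OAC1, GDH1 and ARO4 with Epl1 1:380, and GDH1 and ARO4 with Epl1 1:485. OAC1 is a mitochondrial carrier that also exports alpha-isopropylmalate, GDH1 makes glutamate, the amino donor of the aminotransferases, and ARO4 starts aromatic amino acid synthesis.

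The strains with a truncation did not differ detectably from each other. Of 9 members 0 passed, as did 0% of all features, with 0 features at adjusted p under 0.05 by limma and 183 at an unadjusted p under 0.05. The member differences (Epl1 1:380 minus Epl1 1:485) ran from -0.07 for LEU1, with a 95% interval of -0.25 to 0.11, to 0.04 for BAT1, with an interval of -0.21 to 0.30. For LEU9 the interval was -0.20 to 0.12. Intervals of this width leave room for differences in either direction, so the absence of calls does not show that the truncations act alike.

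Between the control strains, Eaf1 1:982 and tagged Epl1, 0 of 9 members passed, beside 0.0627% of all features (4 features, and 218 at an unadjusted p under 0.05). The largest member difference was BAT2's, at -0.28 ± 0.09 (unadjusted p = 0.00998, adjusted p = 0.9998), and the others ran from -0.04 to 0.10. This difference between the control strains is close in size to the fall of BAT2 in the deletion (-0.31).

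Over the 5 strains, the mean levels of LEU9 ran in the order deletion, Eaf1 1:982, tagged Epl1, Epl1 1:485 and Epl1 1:380, with array ranges that overlapped between the truncations and nowhere else. The deletion had the highest mean for LEU4, ILV1, ILV2, ILV3, ILV5, ILV6, BAT1 and LEU9, and the lowest for BAT2. Across the 10 arrays LEU9 followed LEU1 most closely among the members (Pearson r = 0.97), then BAT1 (0.92), ILV6 (0.88), ILV1 (0.80), ILV3 (0.79) and LEU4 (0.70). It followed ILV2 less (0.46), and ILV5 and BAT2 were at 0.02 and -0.38. The arrays share the reference pool and fall into truncation and other strains, and no p is given for these correlations. Among 890 named genes whose strain means spanned at least 0.5, the 5 most like LEU9 were RPL36A (0.97), DMA2 (0.97), UBP10 (0.97), ARG80 (0.97) and ECM19 (0.97). All 5 had their lowest means in the truncations. In the deletion and Eaf1 1:982 their means were -0.02 and -0.17, 0.05 and -0.0009, 0.20 and 0.20, -0.13 and -0.20, and -0.19 and -0.16, in that order of genes. Not all of them thus rose in the deletion. Of LEU9's neighbours on the chromosome, RGS2 rose by 0.20 in the deletion (adjusted p = 0.0453) and was at -0.01 and -0.01 in the truncations (adjusted p 0.899 and 0.926). INP53 was at 0.07, 0.05 and 0.02 and did not pass in any.

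The rest of the leucine pathway and of the Leu3 regulon held 6 genes: LEU2, LEU3, OAC1, GDH1, LEU5 and MAE1. Over all features 21.7% were higher and 19.1% lower in Epl1 1:380, 19.4% and 17.6% in Epl1 1:485, and 17.8% and 15.8% in the deletion. In Epl1 1:380, 2 of 6 fell: OAC1 at -0.38 ± 0.10 (adjusted p = 0.0153) and GDH1 at -0.31 (adjusted p = 0.00778). In Epl1 1:485, 1 fell, GDH1 at -0.43 (adjusted p = 0.00192), and OAC1 was at -0.24 (adjusted p = 0.0904, and 0.0236 with the block). In the deletion 2 rose, OAC1 at 0.43 (adjusted p = 0.0111) and GDH1 at 0.25 (adjusted p = 0.0248), and LEU5 joined them with the block (0.14, adjusted p = 0.0399). LEU3 itself, the regulator, was at -0.12, -0.12 and 0.15 (adjusted p 0.392, 0.398 and 0.298). The list medians were -0.06, -0.09 and 0.14, beside 0.01 over all features.

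OAC1 was at -0.88 and -0.57 in Epl1 1:380 and -0.66 and -0.51 in Epl1 1:485, against -0.37 and -0.32 in tagged Epl1. OAC1 was at 0.03 and 0.02 in the deletion, against -0.48 and -0.33 in Eaf1 1:982. GDH1 was at -0.43 and -0.33 in Epl1 1:380 and -0.48 and -0.51 in Epl1 1:485, against 0.04 and -0.17 in tagged Epl1. GDH1 was at 0.14 and 0.21 in the deletion, against -0.06 and -0.10 in Eaf1 1:982. Both genes separated truncations from tagged Epl1 and the deletion from Eaf1 1:982 without overlap. So did the members LEU9, ILV5, BAT1, BAT2 and ILV1, and none of ILV1's differences passed. The share of all features separated in this way was not counted, so the separation is a description only. The difference between truncation and deletion passed for OAC1 at -0.81 and -0.67 (adjusted p 0.0150 and 0.0381). For GDH1 it passed at -0.57 and -0.68 (adjusted p 0.0166 and 0.00903). These were the 2 of 6 list genes that passed, both lower, beside 2.49% of all features lower with Epl1 1:380 and 1.98% with Epl1 1:485. From scanner intensities with normexp and loess, none of the 6 passed in the deletion or in the difference between responses, and 1 fell in each truncation. That setting called 1162, 982 and 703 of all 6377 features in either direction, and 28 and 11 in the difference between responses.

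Leaving out arrays ended several of these calls. OAC1 in Epl1 1:380 missed the threshold without Epl1 1:380 replicate a (-0.22, adjusted p = 0.0980) or either tagged Epl1 array (-0.41 and -0.35). In the deletion it missed it without Eaf1 1:982 replicate a (0.35, adjusted p = 0.0766). GDH1 in Epl1 1:380 missed it without Epl1 1:380 replicate a or tagged Epl1 replicate a (-0.27 and -0.21). In the deletion it missed it without deletion replicate b or either Eaf1 1:982 array (0.22 to 0.27). OAC1's difference between responses missed it without each of 3 arrays with Epl1 1:380 and each of 8 with Epl1 1:485, and GDH1's without each of 3 arrays with Epl1 1:380 (adjusted p 0.0515 to 0.145 for OAC1 and 0.0551 to 0.0681 for GDH1).

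Threonine supply, which feeds ILV1, held 6 genes: HOM3, HOM2, HOM6, THR1, THR4 and CHA1. Of all features 21.7% rose and 19.1% fell in Epl1 1:380, 19.4% and 17.6% in Epl1 1:485, and 17.8% and 15.8% in the deletion. The same 3 passed in both truncations. CHA1, the deaminase that breaks down serine and threonine, rose by 0.81 ± 0.10 and 0.92 ± 0.10 (adjusted p 0.000256 and 0.000186). THR1, homoserine kinase, fell by 0.40 and 0.37 (adjusted p 0.00345 and 0.00569), and THR4, threonine synthase, fell by 0.36 and 0.34 (adjusted p 0.00434 and 0.00574). In the deletion CHA1 rose by 0.46 (adjusted p = 0.00605), HOM3, aspartate kinase, rose by 0.19 (adjusted p = 0.0387), and THR4 fell by 0.42 (adjusted p = 0.00250). THR1 was at -0.22 there (adjusted p = 0.0525, and 0.0386 with the block). HOM3's call ended without either deletion array, either Eaf1 1:982 array or either tagged Epl1 array (0.17 to 0.22). Between truncation and deletion 0 of 6 passed. CHA1 had the largest value there, 0.35 and 0.45 (adjusted p 0.190 and 0.114), and passed with Epl1 1:485 under the block (adjusted p = 0.0258).

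CHA1 was at 0.70 and 0.82 in Epl1 1:380 and 0.76 and 0.98 in Epl1 1:485, against -0.03 and -0.07 in tagged Epl1. CHA1 was at -0.10 and 0.02 in the deletion, against -0.62 and -0.39 in Eaf1 1:982. The deletion thus reached the level of tagged Epl1, and its rise was measured from a lower control.

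Uptake and sensing of amino acids held 10 genes, and both truncations gave 2 higher and 3 lower, the deletion 4 higher and 2 lower. The shares over all features were 21.7% higher and 19.1% lower in Epl1 1:380, 19.4% and 17.6% in Epl1 1:485, and 17.8% and 15.8% in the deletion. With the replicate block Epl1 1:380 had 3 higher (BAP2 added) and the deletion 5 higher (SSY5 added). Under that block 1666 of all 6377 features were higher in Epl1 1:380 and 1425 in the deletion. The permeases TAT1 and AGP1 fell in all 3: TAT1 by 0.59, 0.52 and 0.47 (adjusted p 0.00101, 0.00219 and 0.00410) and AGP1 by 0.44, 0.40 and 0.40 (adjusted p 0.000314, 0.000656 and 0.000707). BAP3, another permease, fell by 0.23 and 0.25 in the truncations (adjusted p 0.0160 and 0.0109), but was at 0.04 and 0.06 when arrays were centred on added control RNA. SSY1, the sensor of outside amino acids, rose by 0.34, 0.25 and 0.32 (adjusted p 0.00875, 0.0366 and 0.0144). SSY5, the protease of that sensor, rose by 0.29 and 0.26 in the truncations (adjusted p 0.0175 and 0.0335). BAP2, a branched-chain amino acid permease, rose by 0.43 in the deletion (adjusted p = 0.00275), as did PTR3 by 0.30 (adjusted p = 0.0169) and GNP1 by 0.21 (adjusted p = 0.0257).

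Of these, the calls of TAT1, AGP1 and BAP2 held with any array left out. BAP3's ended in Epl1 1:380 without its replicate a (-0.18) or either tagged Epl1 array (-0.24 and -0.22), and in Epl1 1:485 without its replicate b (-0.23) or tagged Epl1 replicate b (-0.24). SSY1's ended in Epl1 1:380 without tagged Epl1 replicate a (0.30), in Epl1 1:485 without any of its 4 arrays (0.20 to 0.30), and in the deletion without deletion replicate a (0.21) or Eaf1 1:982 replicate b (0.26). SSY5's ended in each truncation without replicate b of that strain (0.24 and 0.19) or either tagged Epl1 array (0.25 to 0.30). PTR3's ended without deletion replicate a (0.18) or Eaf1 1:982 replicate b (0.27), and GNP1's without deletion replicate a or either Eaf1 1:982 array (0.14 to 0.22). From scanner intensities with normexp and loess, 0 of the 10 genes passed in Epl1 1:380, 1 rose in Epl1 1:485 and 1 rose in the deletion. That setting called 1162, 982 and 703 of all 6377 features, in either direction. The list medians were 0.03, 0.03 and 0.15, and 0 of 10 passed between truncation and deletion, where BAP2 was at -0.22 and -0.31 (adjusted p 0.282 and 0.163).

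**Figure D4:**
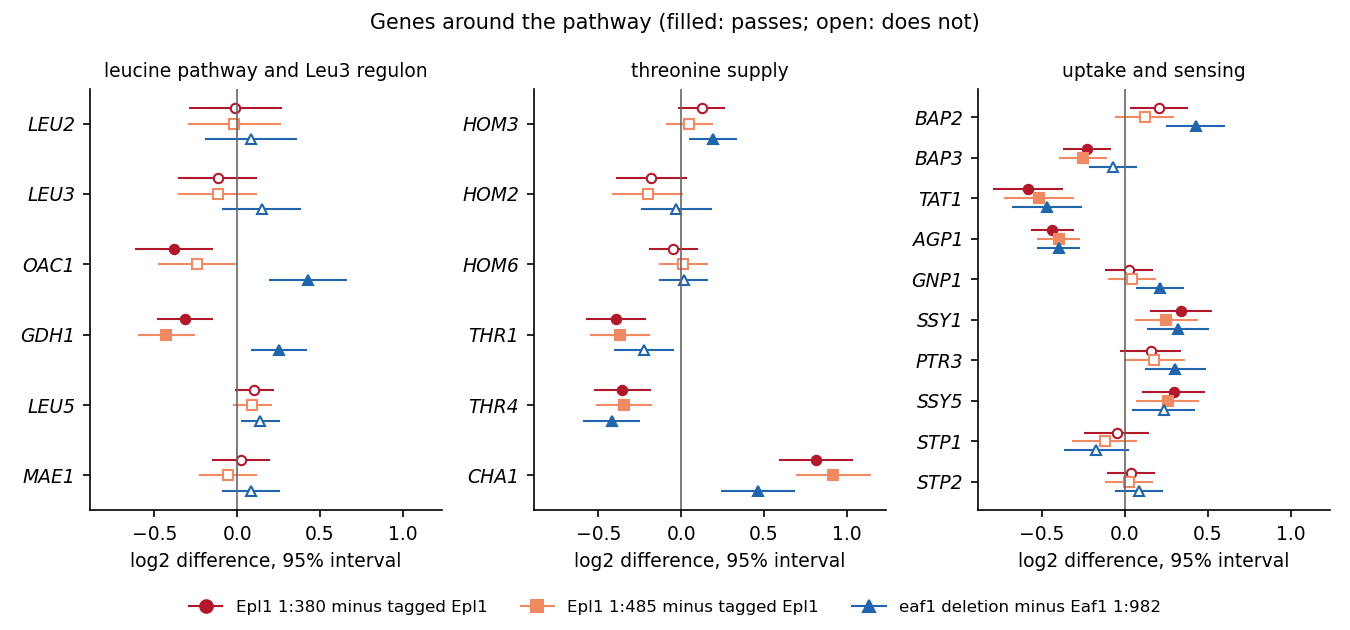
Log2 difference from the control strain with its 95% interval for the remaining leucine pathway and Leu3 regulon genes (left), threonine supply (middle) and amino acid uptake and sensing (right). Circles stand for Epl1 1:380, squares for Epl1 1:485 and triangles for the eaf1 deletion; filled symbols passed. OAC1 and GDH1 lie left of 0 in the truncations and right of 0 in the deletion, CHA1 lies between 0.46 and 0.92, and TAT1 and AGP1 lie left of 0 in all 3.

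Breakdown to fusel alcohols, the fate of surplus branched-chain amino acids, had few calls. Of 7 genes 0, 1 and 1 rose, against 21.7%, 19.4% and 17.8% of all features. None fell, against 19.1%, 17.6% and 15.8% of all features. The gene that rose was ARO10, a decarboxylase, at 0.18 in Epl1 1:485 and 0.16 in the deletion (adjusted p 0.0217 and 0.0370). Its Epl1 1:485 call ended without Epl1 1:485 replicate b (0.14) or either tagged Epl1 array (0.17 and 0.20), and its deletion call without each of 7 of the 10 arrays (0.13 to 0.17). In Epl1 1:380 the 2 largest were ADH1 at 0.68 and PDC5 at 0.49 (adjusted p 0.0993 and 0.176). With the block both rose there with ARO10 (3 of 7), while ADH1 joined ARO10 in Epl1 1:485 (2 of 7). The block called 1666 of all 6377 features higher in Epl1 1:380 and 1556 in Epl1 1:485. ADH1 passed in Epl1 1:380 without Epl1 1:380 replicate a (1.09, adjusted p = 0.0230), as did PDC5 (0.94). The list medians were 0.08, 0.12 and 0.06.

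Among 7 regulators 0 passed in Epl1 1:380, 1 rose in Epl1 1:485 and 2 rose in the deletion. Of all features 21.7%, 19.4% and 17.8% rose in these comparisons. GCN4, the activator of amino acid synthesis genes, was at 0.31 in Epl1 1:380 (adjusted p = 0.0573, and 0.0270 with the block), with GCN1 next at 0.14 (adjusted p = 0.230). It was at 0.36 in Epl1 1:485 (adjusted p = 0.0372) and 0.48 in the deletion (adjusted p = 0.0116). GCN2, the kinase that senses uncharged tRNA, rose by 0.21 in the deletion (adjusted p = 0.0241), where GCN20 joined it with the block (0.23, adjusted p = 0.00660). GCN4 arrays were at 0.37 and 0.44 in Epl1 1:380 and 0.23 and 0.67 in Epl1 1:485, against 0.11 and 0.07 in tagged Epl1, and at 0.50 and 0.51 in the deletion, against -0.03 and 0.07 in Eaf1 1:982. The Epl1 1:485 call ended without its replicate b (0.14), either tagged Epl1 array (0.38 and 0.34) or either Eaf1 1:982 array (0.36), and the deletion call without Eaf1 1:982 replicate a (0.44). GCN4 in Epl1 1:380 passed without either Epl1 1:485 array (adjusted p = 0.00418). GCN2's call ended without deletion replicate b (0.17) or either Eaf1 1:982 array (0.20 and 0.22). Gcn4 is controlled largely at translation, so its transcript level is not its activity.

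Other Gcn4 targets of amino acid synthesis, 26 of 27 listed being measured, gave 5 higher and 16 lower in Epl1 1:380, 5 and 14 in Epl1 1:485, and 5 and 7 in the deletion. With the replicate block these were 6 and 16, 5 and 16, and 5 and 10. Of all 6377 features the block called 1666 higher and 1494 lower in Epl1 1:380. It called 1556 and 1415 in Epl1 1:485, and 1425 and 1277 in the deletion. The main fit called 21.7% of all features higher and 19.1% lower in Epl1 1:380, 19.4% and 17.6% in Epl1 1:485, and 17.8% and 15.8% in the deletion. The list medians were -0.24, -0.20 and -0.11. The largest rises were in ARG3 (2.40 in Epl1 1:380 and 2.03 in Epl1 1:485), ARG8 (0.95 and 0.81) and CPA1 (0.86 and 0.79), which make arginine. The largest falls were HIS4 (-0.99 and -1.19), which makes histidine, ASN1 (-0.68 and -0.82), which makes asparagine, and the lysine genes LYS20 (-0.48 and -0.52) and LYS1 (-0.42 and -0.53). In the deletion ARG3 (0.83), ARG8 (0.55) and ARO1 (0.50) rose, and HIS4 (-0.89), LYS1 (-0.71) and LYS20 (-0.45) fell.

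Between truncation and deletion 2 of the 26 were higher, ARG3 (1.57 and 1.20) and CPA1 (0.99 and 0.92), and 2 lower, ASN1 (-0.57 and -0.71) and ARO4 (-0.45 and -0.46). Over all features 3.36% were higher and 2.49% lower with Epl1 1:380, and 1.91% and 1.98% with Epl1 1:485. With the replicate block 4 of the 26 were higher and 4 lower with Epl1 1:380, and 2 and 2 with Epl1 1:485. Of all 6377 features the block called 351 higher and 319 lower with Epl1 1:380, and 228 and 242 with Epl1 1:485. From scanner intensities with normexp and loess the counts were 3 higher and 9 lower in both truncations and 3 and 3 in the deletion. None was lower there between truncation and deletion. That setting called 1162, 982 and 703 of all features in either direction, and 28 and 11 between truncation and deletion. The LYS20 call in the deletion ended without Eaf1 1:982 replicate a (-0.40). ARO4, at -0.22, -0.22 and 0.23 in the 3 comparisons, lost its call without 2, 2 and 3 of the arrays in turn (adjusted p 0.0580 to 0.106), and its difference between responses without 5 and 7 of them.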

How the data were processed

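RNA of 5 yeast strains was hybridised with a common reference pool to 10 spotted 2-colour arrays, 2 per strain, of 15552 spots each. The deposited value table holds log2 ratios that the authors made, per the deposited protocol text, from Imagene intensities with a loess (span 0.4) inside each array, no background subtraction and a correction for gene-specific dye bias. Scanner intensities deposited for each array were used for alternatives. The direction of the ratios was taken from the dyes in the labels: replicate a columns were multiplied by -1, so that every value is strain over pool. Array medians of the table then lay between -0.0040 and 0.020, so it was used without further centring.

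Control spots (2776) were left out and spots averaged per gene or unnamed feature, giving 6377 features, 5315 of them named. Of the named genes, 5255 matched a RefSeq symbol of the reference gene table and 60 a synonym. Differences between strains were fitted with limma 3.58.1 (R 4.3.3), lmFit and eBayes, with 1 coefficient per strain, 5 residual degrees of freedom and Benjamini-Hochberg adjustment over all features. The test code was tested on simulated data. Replicate letters pair the samples: deviations from the strain means correlated between strains at 0.29 to 0.56 over all 10 strain pairs, and the letter is also the dye orientation. The fit with this block is given beside results it changes.

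The text names all 10 members, EAF1 and EPL1, up to 6 passing genes of each list and comparison by size of change (the 2 largest where none passed) and the 5 genes most like LEU9 by Pearson r. Members and lists were chosen with earlier results of these data known, so the tests of the other 9 members are no independent support for the pattern of LEU9. Alternatives were scanner intensities (normexp with offset 50 and loess, print-tip loess, or no background correction), median or added-RNA centring, dim features left out, the block, a variance trend, only the strains compared, and each array left out. The added-RNA centring used 5 of 14 reporters. The study's design text names limits of p below 0.01 and fold over 1.7. Promoter motifs were not analysed here. Coordinates are not given: the deposited files name no genome build, and the reference gene table (assembly R64) was used only for names and gene order.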

Additional observations from a re-analysis of the deposited data

Results flagged for a closer look

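Genes whose response to an Epl1 truncation differed from their response to the eaf1 deletion, by the limma test of that difference, are given here with the Epl1 1:380 value and then the Epl1 1:485 value (log2, truncation response minus deletion response, each from its own control). Among the members these were LEU1 (-0.68 and -0.61), LEU4 (-0.48 and -0.50) and ILV2 (-0.53 and -0.52). LEU9, which chose the group and was not tested, was at -1.06 and -1.03, with every truncation array below and every deletion array above its controls. In the Leu3 regulon these were OAC1 (-0.81 and -0.67) and GDH1 (-0.57 and -0.68). Among other Gcn4 targets, ARG3 (1.57 and 1.20) and CPA1 (0.99 and 0.92) were higher in the truncations, and ARO4 (-0.45 and -0.46) and ASN1 (-0.57 and -0.71) lower. All of these values share the deletion, Eaf1 1:982 and tagged Epl1 arrays. From scanner intensities with normexp and loess, 0 of the 9 tested members passed in either test. OAC1, GDH1, ARO4 and ASN1 did not pass there either. Several of the calls also ended with an array left out, as given above. With 2 arrays per strain, no strain had enough arrays to look for a single array far from the others.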

How the results depend on the processing

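Array number limits these results: 2 arrays per strain leave 5 residual degrees of freedom. Of 7680 recomputed values, 7014 were counted as the same, 522 lost and 109 gained a call, 24 moved and 11 reversed. Those counted as the same include values that did not pass and changed sign. Over the alternatives LEU1 in the deletion ran from -0.11 to 0.29, with 4 sign changes. ILV6 in Epl1 1:485 ran from -0.20 to 0.07, with 1 sign change. The cause of these changes was not tested.

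Centring on added control RNA moved the median of all features by 0.32, 0.40 and 0.40 in Epl1 1:380, Epl1 1:485 and the deletion. All 11 reversals came with it: in Epl1 1:380 BAP3 0.042, LYS2 0.17, MET16 0.13 and EAF1 0.015. In Epl1 1:485 they were BAP3 0.063, MET16 0.12, EAF1 0.050 and HIS3 0.025, and in the deletion LYS9 0.059, LYS21 0.11 and ARO3 0.031. LEU9 kept its sign under every alternative, from -0.94 to -0.60 in Epl1 1:380, -0.81 to -0.42 in Epl1 1:485 and 0.22 to 0.53 in the deletion.

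Features passing numbered 2601 in Epl1 1:380, 2361 in Epl1 1:485 and 2145 in the deletion. With the replicate block they numbered 3160, 2971 and 2702. They numbered 1162, 982 and 703 with normexp and loess, 981, 851 and 618 without background correction, 1291, 1120 and 887 with print-tip loess, 17, 20 and 44 with added-RNA centring, and 242, 184 and 171 at the design text's limits. With an array left out they ran from 1750 to 2835, 1504 to 2636 and 1263 to 2083. For the differences between truncation and deletion the counts were 373 and 248, and in the same order 28 and 11, 10 and 5, 47 and 35, 0 and 0, and 76 and 61. Leaving out dim features gave 229 with Epl1 1:380, and the replicate block as pairing gave 670 and 470. Arrays left out gave 129 to 498 and 94 to 407. Epl1 1:380 minus Epl1 1:485 had 0 (0 to 3 with an array left out). Eaf1 1:982 minus tagged Epl1 had 4, which became 15 with the replicate block, 0 with each scanner setting, added-RNA centring, only the strains compared and the design limits, and 0 to 4 with an array left out.

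Members passing in Epl1 1:380 numbered 1, and 2 with normexp, without background correction, with median centring or with a variance trend, 4 with only the strains compared, 5 with the replicate block, 0 with added-RNA centring or the design limits, and 1 to 4 with an array left out. In Epl1 1:485 they numbered 2, then 4 with the block, 0 with added-RNA centring or the design limits, and 1 to 5 with an array left out. In the deletion they numbered 4, then 1 without background correction, 2 with print-tip loess, 0 with added-RNA centring or the design limits, and 3 to 5 with an array left out. Between truncation and deletion they numbered 3 and 3, then 0 and 0 with normexp, no background correction, added-RNA centring and the design limits, 1 and 0 with print-tip loess, and 0 to 5 and 0 to 4 with an array left out. The replicate block ended no member's call.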
